A study of Mus musculus with 48 samples.

Results

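Fatty acids that reach adipose tissue are activated, lengthened and desaturated before they are stored in triglycerides or built into membranes, and 10 genes of these steps were described here in subcutaneous white adipose tissue (sWAT) of mice fed ad libitum (ad-lib) or in 2 windows of the night (TAN). The genes were chosen by name for their enzymatic role, with earlier results of these data known: the desaturases Fads1, Fads2 and Fads3, the elongases Elovl1, Elovl5 and Elovl7, the long-chain acyl-CoA synthetases Acsl3, Acsl4 and Acsl5, and the 3-ketoacyl-CoA reductase Hsd17b12. They are 10 of the 54532 genes listed in the count table, and all 10 were among the 19977 genes with enough counts to be tested.

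Bulk poly-A RNA of inguinal fat was sequenced from 8-month-old C57BL/6 mice (males of the substrain C57BL/6J by the paper's methods), with 4 libraries of each diet at each of 6 labelled times of day (8 AM, 12 PM, 4 PM, 8 PM, 12 AM and 4 AM), 48 in all. The control mice had food at all times, whereas the TAN mice had access to it only in the 2 night windows for 6 months, and the labels name no allele or agent for either group. GEO's design text calls the material a stromal vascular fraction and the paper's methods treat it as whole sWAT. The labels number the libraries of a group without saying that they come from separate mice, and the p-values below measure the spread between libraries.

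In mammals, long polyunsaturated fatty acids such as arachidonic acid and docosahexaenoic acid are made from dietary linoleic and alpha-linolenic acid by alternating steps of desaturation, in which Fads2 places the first of the new double bonds and Fads1 a later one, and of elongation by Elovl5 and its relatives. Each turn of elongation takes place in the endoplasmic reticulum and needs a condensing enzyme of the Elovl family, the ketoacyl-CoA reductase Hsd17b12, a dehydratase and the enoyl-CoA reductase Tecr. Acyl-CoA synthetases activate free fatty acids so that they can enter any of these routes, and Acsl4 is known for its preference for arachidonic acid.

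Total counts were between 15636378 and 29913310 in ad-lib libraries and between 15685080 and 25440243 in TAN libraries, and values below are CPM, counts scaled to library size with TMM factors. All 6 adipocyte markers (Adipoq, Plin1, Cidec, Fabp4, Lep and Lpl) were detected in every group, with a summed level of 4613 to 47723 CPM over the 48 libraries. Markers of other cell types varied widely as well, from 12.9 to 2803 CPM for the 10 lymphocyte markers and from 4.46 to 4962 CPM for the 6 skeletal muscle markers. The labelled times carry a limit: matched over 961 genes to the expression values listed with the paper, 0 of 48 libraries had their match under the same time and 48 of 48 matched the same mouse name 12 h apart. The clock output gene Dbp, whose RNA peaks late in the light phase in peripheral tissues of mice, was highest at the labelled 4 PM (102 ± 19.9 CPM in ad-lib and 154 ± 58.0 in TAN mice, against 8.37 ± 4.99 and 7.85 ± 1.75 at 8 AM). Arntl, which runs opposite to it, was highest at 8 AM (32.3 ± 9.59 and 46.0 ± 4.60 CPM) and lowest at 4 PM (9.93 ± 2.96 and 4.17 ± 2.31). The labelled times are used throughout, and the grouping of the libraries does not depend on the hour.

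Per kilobase of transcript, the members spanned a range from Hsd17b12 to Elovl7. In ad-lib mice the mean level over 24 libraries was 110.04 ± 39.1 CPM per kb (SD) for Hsd17b12 and 86.5 ± 32.5 for Fads3, a desaturase, and these neighbours overlapped within 1 SD. Elovl5 followed at 42.9 ± 7.22 CPM per kb and stood apart from both neighbours in the order.

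Next in ad-lib mice came Fads1 (25.1 ± 7.84 CPM per kb), Elovl1 (18.5 ± 2.85), Acsl5 (17.3 ± 2.85) and Acsl4 (12.1 ± 2.66). Neighbours among these overlapped when 1 SD was taken around each mean. Acsl3 (6.06 ± 2.22 CPM per kb) and Fads2 (5.70 ± 1.41) were lower and overlapped each other. Elovl7 had the lowest level, 0.705 ± 0.240 CPM per kb. The order in TAN mice was the same except that Fads2, at 8.35 ± 2.94 CPM per kb, stood above Acsl3 at 7.85 ± 5.62, a pair that overlapped, and Hsd17b12 again led at 188 ± 86.7. Fads2, which introduces the first double bond of the pathway, was thus the least abundant of the 3 desaturases per kb in both diets.

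**Figure D1:**
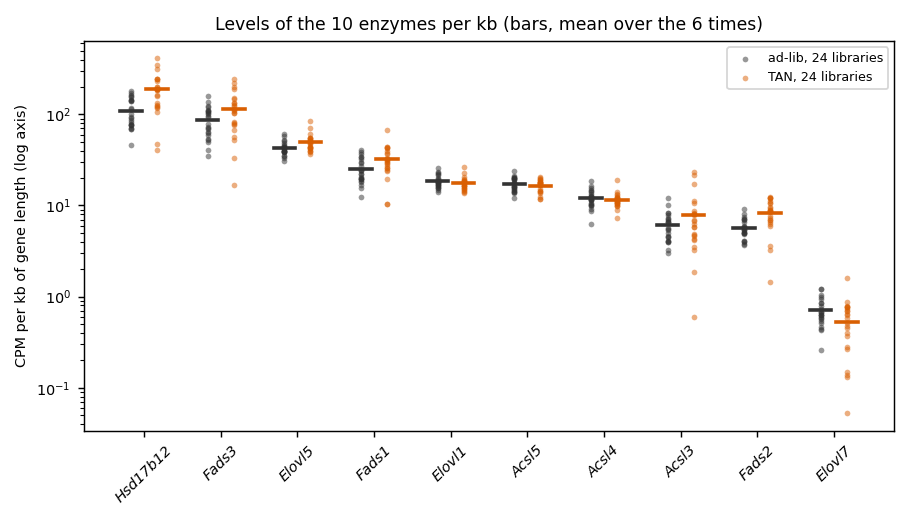
Level of each member per kilobase of gene length (TMM-scaled CPM per kb, log axis) in every library, with ad-lib and TAN libraries drawn separately and 24 libraries per diet. The single Elovl7 value of 0 (TAN, 12 AM, replicate 4) cannot be drawn on the log axis and is left out. Hsd17b12 and Fads3 lie at the top in both diets and Elovl7 at the bottom.

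Promoter sequences are shown for 3 of the members whose RNA differed by diet or by time in TAN mice. Shown is the part of the RefSeq window of 250 bases before the start (GRCm38.p6) that lies outside the deposited gene. This part is 249 bases for Elovl5, 250 for Acsl3 and 195 for Hsd17b12. The stretches are Elovl5 at chr9:77917115-77917363 on the plus strand, Acsl3 at chr1:78657575-78657824 on the plus strand, and Hsd17b12 at chr2:94157965-94158159 on the minus strand. Each reads 5′ to 3′ toward the gene, and capitals mark matches to the E-box CACGTG, the GC box GGGCGG or the CCAAT box CCAAT on either strand.
Elovl5: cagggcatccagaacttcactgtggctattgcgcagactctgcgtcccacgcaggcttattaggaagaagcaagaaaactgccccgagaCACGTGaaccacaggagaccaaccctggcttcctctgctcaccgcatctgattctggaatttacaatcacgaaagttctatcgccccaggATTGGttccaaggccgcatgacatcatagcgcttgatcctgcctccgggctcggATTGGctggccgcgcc
Acsl3: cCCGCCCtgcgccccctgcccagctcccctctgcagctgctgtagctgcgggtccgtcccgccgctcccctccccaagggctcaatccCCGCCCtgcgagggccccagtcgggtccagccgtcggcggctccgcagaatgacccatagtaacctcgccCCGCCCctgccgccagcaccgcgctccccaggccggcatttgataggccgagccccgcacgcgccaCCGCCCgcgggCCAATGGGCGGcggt
Hsd17b12: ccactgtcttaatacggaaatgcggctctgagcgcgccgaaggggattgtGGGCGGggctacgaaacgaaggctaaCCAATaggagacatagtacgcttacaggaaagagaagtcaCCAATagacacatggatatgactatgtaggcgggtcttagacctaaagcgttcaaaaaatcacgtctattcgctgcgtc

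The Elovl5 window holds an E-box, the sequence that clock and carbohydrate-response factors can bind, 161 bases before the RefSeq start, and 2 CCAAT boxes on the opposite strand. Acsl3 has 5 GC boxes, the last of them directly after a CCAAT box with no shared base. Hsd17b12 has 1 GC box and 2 CCAAT boxes. Of the 9 members matched to a RefSeq promoter window of 250 bases (Fads1 was not matched), 1 held CACGTG, 7 held GGGCGG, 6 held CCAAT and 0 held the sterol-response letters TCACNCCAC. Over all 32536 promoters of the same length these shares were 6.04%, 33%, 33.8% and 1.04%. A match describes letters only, and no binding was measured here.

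Hsd17b12, the reductase shared by every elongation cycle, showed the largest mean difference between the diets among the 10 members. It lies on chromosome 2 at 94032689 to 94157964 (GRCm38, minus strand). At 4 PM its level was 240.3, 198, 166 and 185 CPM in the 4 ad-lib libraries and 585, 396, 486 and 554 CPM in the 4 TAN libraries. Every TAN library lay above every ad-lib library at that time. The difference was 1.36 ± 0.38 on the log2 scale (SE, 95% interval 0.58 to 2.13), or 2.56-fold, and passed the quasi-likelihood test of edgeR (p adjusted by Benjamini-Hochberg over all 19977 genes, adjusted p = 0.0202). At this time the adipocyte and lymphocyte markers differed between the diets with no overlap, and the call ended with either marker level as a covariate (0.67 and 0.83, adjusted p = 0.172 and 0.346).

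At 12 AM Hsd17b12 reached 446, 989, 838 and 755 CPM in TAN mice against 438, 409, 210.1 and 279 CPM in ad-lib mice. The TAN libraries were again all higher, by a narrow margin for replicate 1, whose adipocyte markers (20793 CPM) were lower than in the other TAN libraries of that time (35715 to 37800.2 CPM). This difference of 1.18 ± 0.38 did not pass in edgeR (adjusted p = 0.139) and passed in DESeq2 (1.22, adjusted p = 0.0417). At 8 PM the TAN libraries split into a low pair of 114 and 97.4 CPM and a high pair of 476 and 583 CPM, against 111, 183, 167 and 344 CPM in ad-lib mice. The low pair consisted of replicates 1 and 2, which held 7520 and 4613 CPM of adipocyte markers, the least of all 48 libraries. Hsd17b12 did not pass at 8 PM with these libraries (0.66 ± 0.38, edgeR adjusted p = 0.263) and passed without them, an alternative chosen after the data were seen.

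The remaining times gave Hsd17b12 means of 268 ± 102 (SD, n = 4) against 295 ± 9.39 CPM at 8 AM, 264 ± 54.0 against 439.8 ± 140.3 CPM at 12 PM, and 324 ± 97.6 against 400.2 ± 61.9 CPM at 4 AM, with ad-lib first. The TAN mean was higher at 6 of 6 times. Over all times the ad-lib libraries ran from 111 to 438 CPM (median 231) and the TAN libraries from 97.4 to 989 CPM (median 449.7). The mean effect of TAN over the 6 times was 0.73 ± 0.15 on the log2 scale (95% interval 0.42 to 1.04), or 1.66-fold (edgeR quasi-likelihood, Benjamini-Hochberg adjusted p = 0.00439), and adjusted p stayed between 6.45e-04 and 0.00971 when any 1 library was left out.

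**Figure D2:**
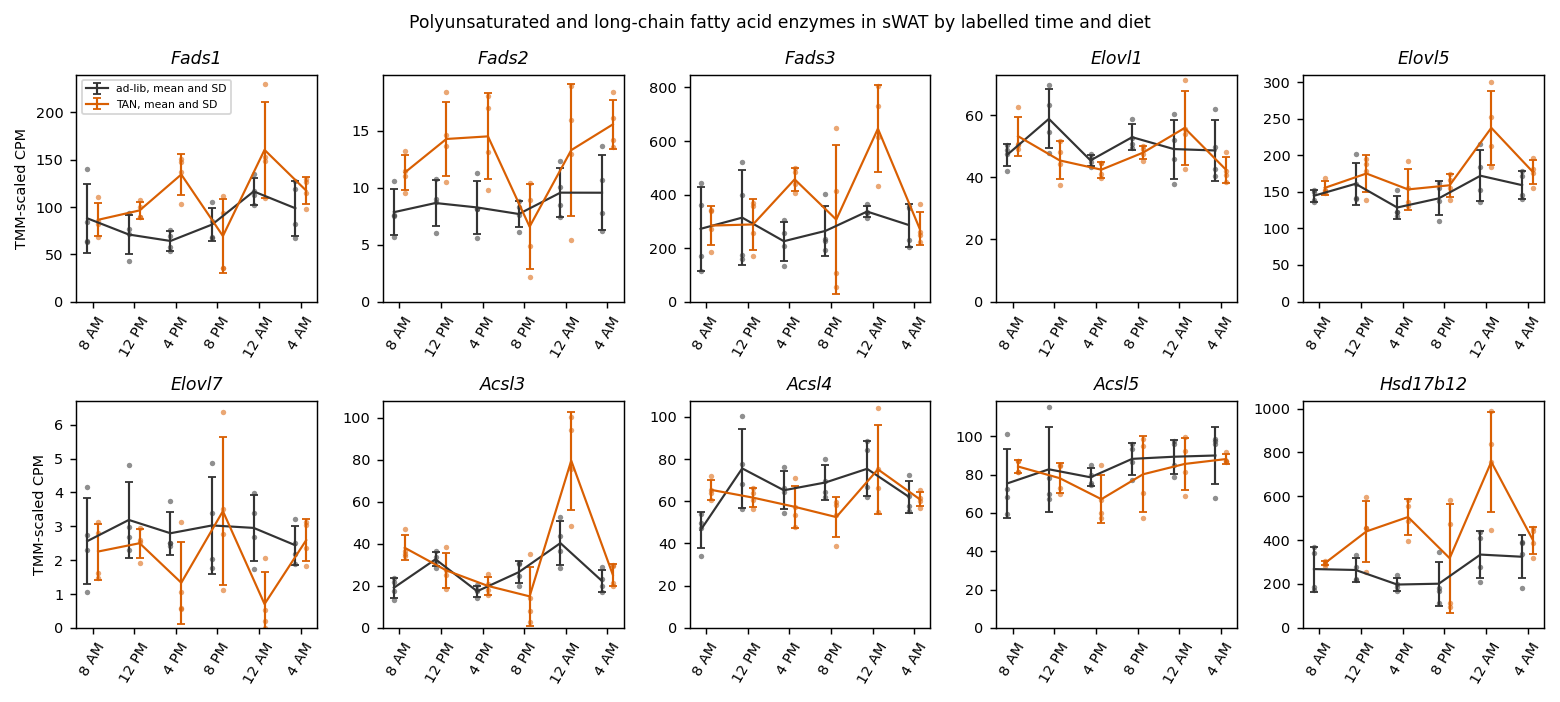
CPM of each member in every library against labelled time of day, with ad-lib and TAN libraries drawn separately, 4 libraries per point in time, and lines through the group means with SD bars. Hsd17b12, Fads1, Fads3 and Acsl3 reach their highest TAN means at 12 AM, and the TAN libraries of 8 PM fall into a low and a high pair in Hsd17b12, Fads1 and Fads3.

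The desaturases lie side by side on chromosome 19, with Fads3 at 10041548 to 10059671, Fads2 at 10064164 to 10101503 and Fads1 at 10182888 to 10196870 (GRCm38). Fads1, the delta-5 desaturase, measured 69.1, 75.9, 54.0 and 57.3 CPM in ad-lib libraries and 103, 148, 137 and 150.4 CPM in TAN libraries at 4 PM. The groups did not overlap. Fads1 rose by 1.07 ± 0.29 on the log2 scale at that time (SE, 95% interval 0.49 to 1.65), or 2.1-fold (edgeR quasi-likelihood, Benjamini-Hochberg adjusted p = 0.0162). With the adipocyte or the lymphocyte markers as a covariate it was 0.54 under both and did not pass (adjusted p = 0.108 and 0.362). At 8 AM, in contrast, its means were 88.1 ± 36.4 CPM in ad-lib and 86.4 ± 17.6 CPM in TAN mice (log2 difference -0.03, 95% interval -0.60 to 0.55).

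In TAN mice Fads1 was highest at 12 AM with 109.6, 153, 149 and 230.1 CPM. Its lowest TAN mean was at 8 PM, where replicates 1 and 2 measured 35.6 and 35.9 CPM and replicates 3 and 4 measured 94.1 and 112 CPM. The same libraries that were poor in adipocyte markers were thus the low ones. Averaged over the 6 times Fads1 was 0.33 ± 0.12 higher in TAN mice on the log2 scale, which missed the threshold (edgeR adjusted p = 0.0834).

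Fads2, the delta-6 desaturase that carries out the first step of the pathway, had its largest difference at 4 PM, with 5.56, 8.12, 8.13 and 11.2 CPM in ad-lib libraries and 9.83, 17, 13.1 and 18.1 CPM in TAN libraries (0.81 ± 0.33 on the log2 scale, edgeR adjusted p = 0.0833). TAN replicate 1 lay below the highest ad-lib library there and the other TAN libraries above all of them. At 4 AM it measured 7.77, 6.17, 13.6 and 10.6 CPM in ad-lib libraries and 18.4, 14.2, 13.6 and 16.1 CPM in TAN libraries. At 12 PM the values were 6.00, 8.76, 9.05 and 10.8 CPM against 13.6, 14.6, 10.5 and 18.4 CPM. At 12 PM and 4 AM the diets met only at the highest ad-lib and lowest TAN libraries. Neither time passed the test (edgeR adjusted p = 0.641 at 12 PM and 0.9995 at 4 AM).

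Over all times Fads2 ran from 5.56 to 13.6 CPM in ad-lib mice (median 8.21) and from 2.18 to 18.9 CPM in TAN mice (median 13.2), and its TAN mean was higher at 5 of 6 times, 8 PM being the exception. The mean effect over the 6 times was 0.50 ± 0.14 on the log2 scale (95% interval 0.23 to 0.78), or 1.42-fold (edgeR quasi-likelihood, Benjamini-Hochberg adjusted p = 0.0252). Fads2 no longer passed with limma voom (0.43, adjusted p = 0.0643) or without the filter on low counts (0.47, adjusted p = 0.0547), and its adjusted p was between 0.00510 and 0.0643 over 11 alternatives that include these.

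Fads3, the third member of the cluster, is far more abundant than Fads2 and has a less settled role, with activity toward trans-vaccenic acid and sphingoid bases described. Its ad-lib libraries at 4 PM measured 207, 305, 133 and 258 CPM and its TAN libraries 405, 483, 440.0 and 499 CPM. At 12 AM the values were 314, 365, 336 and 331 CPM against 431, 730.2, 807 and 616 CPM. The diets did not overlap at either time, yet the fitted differences of 1.02 ± 0.45 and 0.94 ± 0.45 on the log2 scale did not pass in the edgeR model of all libraries (adjusted p = 0.108 and 0.269). A separate edgeR fit of the 8 libraries of 4 PM called Fads3 (0.97, adjusted p = 0.0128), and in all 4408 of the 16196 genes it tested. Its within-group spread was wide, with ad-lib libraries of 12 PM at 523, 161, 397 and 174 CPM, and Fads3 was the member that followed the adipocyte markers most closely, with a Pearson correlation of 0.94 of log2 values over the 48 libraries, which share diets, times and scaling. The marker level in these correlations is the mean log2 CPM of the 6 adipocyte markers.

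Among the elongases, Elovl5, which lengthens polyunsaturated fatty acids, was the most abundant. It lies on chromosome 9 at 77917364 to 77984519. At 12 AM its level was 184, 215, 137 and 152 CPM in ad-lib libraries and 184, 301, 213 and 252 CPM in TAN libraries. TAN replicates 2 and 4 exceeded all ad-lib libraries, while TAN replicates 1 and 3 lay among them. The difference of 0.47 ± 0.16 on the log2 scale did not pass (edgeR adjusted p = 0.158), and without TAN replicate 1 it did (0.64, adjusted p = 0.0344).

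Elovl5 had a TAN mean above the ad-lib mean at 6 of 6 times, from 155 ± 9.38 against 145 ± 8.26 CPM at 8 AM to 237 ± 50.7 against 172 ± 34.9 CPM at 12 AM. The mean effect of 0.21 ± 0.07 on the log2 scale (95% interval 0.08 to 0.35) lay at the threshold in edgeR (adjusted p = 0.0513). Of 11 alternatives, the range of adjusted p was 0.0262 to 0.136. Unlike Hsd17b12 and Fads3, Elovl5 showed little relation to the adipocyte markers (Pearson r = 0.20 over 48 libraries).

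Elovl1, which acts on saturated and monounsaturated fatty acids of very long chain, differed little between the diets. Its largest difference was at 12 PM, where ad-lib libraries measured 69.5, 54.4, 63.2 and 48 CPM and TAN libraries 37.4, 44.4, 48 and 51.8 CPM. The groups overlapped and the log2 difference of -0.37 ± 0.15 did not pass (edgeR adjusted p = 0.594). The mean effect over the 6 times was -0.08 with a 95% interval of -0.20 to 0.05. Counts on Elovl1 may include reads of Cdc20, a cell cycle gene on the opposite strand, since the use of strand in the counting is not given in the sources used here. The spans overlap only from 118432901 to 118432953 on chromosome 4. Cdc20 as a whole holds 4996 counts against 49259 over all libraries.

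Elovl7 was close to the lower limit of detection. At 12 AM the 4 ad-lib libraries held 102, 68, 57 and 57 counts of Elovl7 (3.99, 3.40, 1.75 and 2.68 CPM), and the TAN libraries held 5, 33, 9 and 0 counts (0.213, 2.07, 0.528 and 0 CPM). TAN replicate 2 lay above the lowest ad-lib library and the other TAN libraries below all of them. Up to 3 counts are compatible with the zero in replicate 4, which therefore does not show absence. The log2 difference of -2.07 ± 0.65, whose size depends on the prior count, did not pass in edgeR (adjusted p = 0.131) and passed in DESeq2 (-2.04, adjusted p = 0.0281) and limma voom (-3.13, adjusted p = 0.0383).

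Acsl3, an acyl-CoA synthetase of the endoplasmic reticulum and lipid droplets, had the clearest time course in TAN mice. Its TAN means were 38.1 ± 5.95 CPM at 8 AM, 27.4 ± 8.19 at 12 PM, 20 ± 4.33 at 4 PM, 15.0 ± 14.2 at 8 PM, 79.6 ± 23.4 at 12 AM and 25.2 ± 5.33 at 4 AM (SD, n = 4 each). The 12 AM libraries, at 48.4, 100.5, 75.4 and 94.2 CPM, all stood above every TAN library of any other time. The 8 PM libraries, at 8.05, 2.61, 14.3 and 35.0 CPM, included the 2 lowest values of Acsl3 in the series, and the highest TAN mean was 5.31 times the lowest. Acsl3 varied over time in TAN mice (edgeR quasi-likelihood, Benjamini-Hochberg adjusted p = 1.27e-04), and stayed past the threshold with any TAN library left out (adjusted p from 1.94e-07 to 0.00140).

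In ad-lib mice Acsl3 was also highest at 12 AM, with 52.7, 43.9, 28.4 and 36.4 CPM, and lowest at 4 PM, with 14.1, 17.9, 17.6 and 20.2 CPM. These groups did not overlap, but they were picked as highest and lowest from the same values, so this is no test. Variation over time in ad-lib mice did not pass (edgeR adjusted p = 0.564). Between the diets, the 8 AM libraries measured 23.9, 21.9, 13.0 and 17.5 CPM in ad-lib and 34.9, 47, 36.4 and 34.3 CPM in TAN mice, with no overlap. The log2 difference was 1.0 ± 0.36 at 8 AM, -0.82 ± 0.36 at 8 PM and 0.98 ± 0.36 at 12 AM, and none of these passed (edgeR adjusted p = 0.67, 0.125 and 0.172). The 8 PM value depended on single libraries: its 2 lowest TAN libraries are replicates 1 and 2, poorest in adipocyte markers, without which the difference was -0.11 (adjusted p = 0.844). Without TAN replicate 4 it was -1.67 and passed (adjusted p = 0.00128).

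The test that the TAN effect on Acsl3 differs between times narrowly missed the threshold in edgeR (adjusted p = 0.057), and over 11 alternatives adjusted p was between 0.00229 and 0.0708, with 0.0145 in DESeq2. The reads of Acsl3 may be shared with Utp14b, a ribosome biogenesis gene that overlaps it on the same strand and holds 7569 counts against 29445.

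Acsl4, on the X chromosome, was higher in TAN mice at 8 AM (63.7, 71.9, 65.3 and 60.8 CPM against 47.5, 53.9, 49.6 and 34.2 CPM) and lower at 8 PM (59.5, 39.0, 58.2 and 53.4 CPM against 64.2, 69.4, 80.1 and 61.9 CPM). The diets did not overlap at either time, in opposite directions. The log2 differences of 0.50 ± 0.18 and -0.39 ± 0.18 did not pass (edgeR adjusted p = 0.659 and 0.137), nor did the test that the effect differs between times (adjusted p = 0.0961). At 12 AM the means were 75.4 ± 13.0 and 75.1 ± 21.1 CPM.

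Acsl5, which is found on mitochondria and the endoplasmic reticulum, showed neither a diet nor a time effect that passed in edgeR with all libraries and no covariate. With the adipocyte markers as a covariate it was called in the variation over time and in the harmonic of TAN mice, and also in that harmonic without the adipocyte-poor pair of TAN 8 PM libraries. Such calls were common: 5029 and 7353 of 19977 genes with the covariate, and 5658 of 21708 without the pair. The ad-lib libraries of Acsl5 ran from 59.4 to 116 CPM with a median of 82.3 and its TAN libraries from 57.1 to 99.9 CPM with a median of 84.6. The mean effect of -0.06 on the log2 scale had a 95% interval of -0.21 to 0.08 (edgeR adjusted p = 0.65). It was the member most opposed to the adipocyte markers over the 48 libraries (r = -0.61) and its correlation with the lymphocyte markers was positive (r = 0.66), while its reads may be shared with Zdhhc6, which overlaps it on the opposite strand and holds 49783 counts against 83978.

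Seen by comparison, 2 of 10 members were called higher at 4 PM (Fads1 and Hsd17b12) and 0 lower, against 15.3% of all genes called in either direction and 6.54% called higher. Both missed the threshold without ad-lib replicate 3, and Hsd17b12 also without ad-lib replicate 4 or TAN replicate 1, with adjusted p up to 0.0617 for Fads1 and 0.0708 for Hsd17b12. The groups did not overlap for 3 members with TAN higher at that time, against 12.8% of all genes. At 8 AM (0.015% of all genes called), 12 PM (0.0901%), 8 PM (11.7%), 12 AM (0.15%) and 4 AM (0%), edgeR called 0 members, while 2, 2, 2, 5 and 1 of the 10 had an unadjusted p under 0.05, against 6.58%, 7.37%, 28%, 17.5% and 2.64% of all genes. DESeq2 called 2 members at 12 AM and limma voom 1 each at 8 PM (Acsl3) and 12 AM (Elovl7), and neither called one at 8 AM, 12 PM or 4 AM. Over all 19977 genes DESeq2 called 562 at 12 AM, and limma voom called 3711 at 8 PM and 42 at 12 AM. Outside 4 PM the groups of 2 members did not overlap at 8 AM with TAN higher (2.03% of all genes), of 1 at 8 PM with TAN lower (11.6%) and of 2 at 12 AM with TAN higher (3.59%).

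The mean effect over the 6 times called 2 of 10 members, Fads2 and Hsd17b12, both higher in TAN mice, where 5.42% of all genes were called and 2.68% called higher. The median log2 difference of the 10 members was 0.21, beside -0.08 over all genes tested. By time it was 0.22 at 4 PM beside -0.09, and 0.46 at 12 AM beside -0.14. At 8 AM it was 0.15 beside 0.01 and at 4 AM 0.12 beside 0.0036. It lay below that of all genes at 12 PM (-0.10 beside 0.04) and 8 PM (-0.14 beside -0.10). At each of these last times 4 of 10 members had a positive difference. No member passed the test that the TAN effect differs between times in edgeR, with 8.98% of all genes called and 3 of 10 members at an unadjusted p under 0.05 (30.2% of all genes), so that none of the differences above is shown to belong to its time by that test, while Acsl3 passed it in DESeq2, and Acsl3 and Elovl7 in limma voom. Over all 19977 genes that test called 4032 in DESeq2 and 4390 in limma voom.

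**Figure D3:**
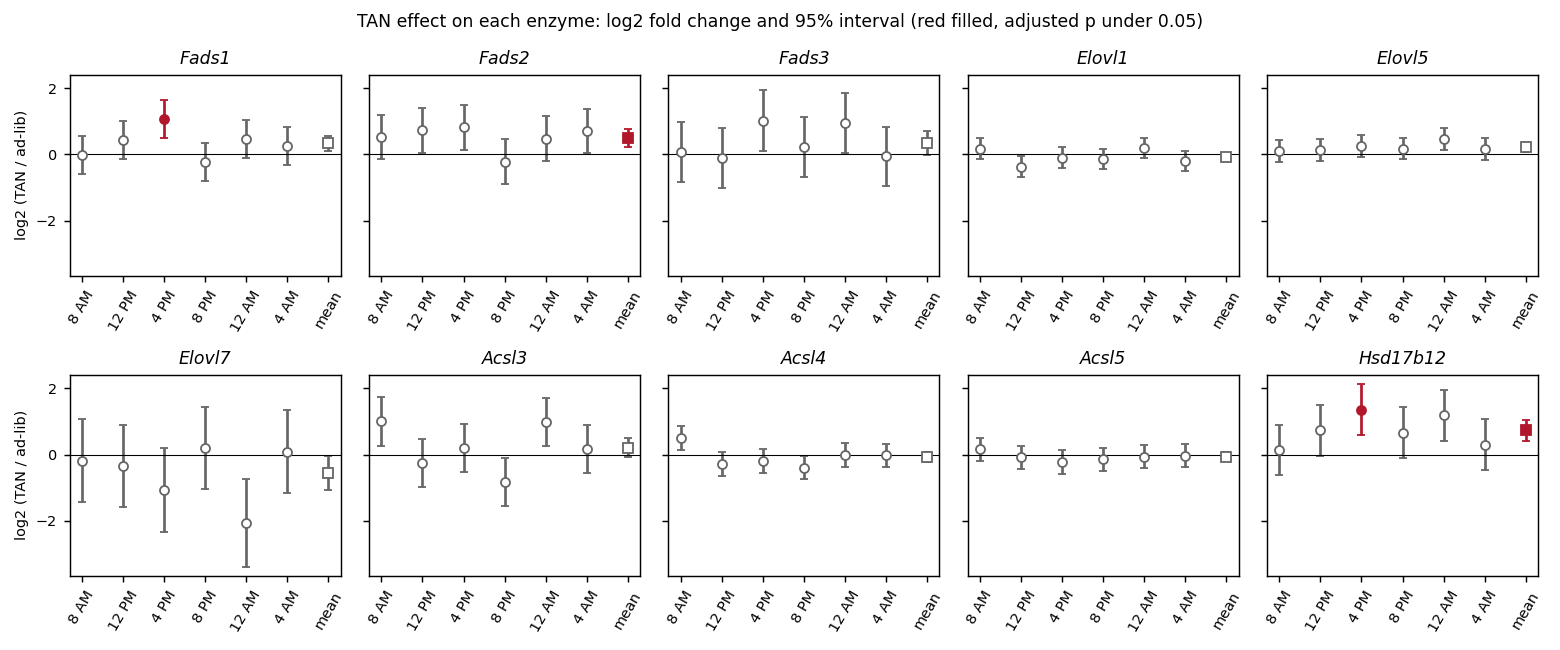
Log2 fold change of TAN against ad-lib for each member at each labelled time and as the mean over the 6 times, with 95% intervals from edgeR. Fads1 and Hsd17b12 at 4 PM, and Fads2 and Hsd17b12 in the mean, are the values that passed the adjusted threshold.

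Over the day, 4 of 10 members varied in TAN mice (Acsl3, Fads1, Elovl5 and Hsd17b12, adjusted p = 1.27e-04, 0.0169, 0.0218 and 0.0423 in edgeR), where 23% of all genes did. Without TAN 12 AM replicate 4, Acsl3 alone passed. No member varied in ad-lib mice in edgeR, DESeq2 or limma voom, where 0.0551% of all genes did and 3 members had an unadjusted p under 0.05 (6.67% of all genes). A 24-h harmonic passed in TAN mice for Acsl3 alone (adjusted p = 0.0132, amplitude 0.60 on the log2 scale, fitted peak at hour 3.64 of the labelled day), with 19.8% of all genes called. In ad-lib mice the harmonic passed for 0 members in edgeR, DESeq2 and limma voom (0.0801% of all genes in edgeR), with 2 members and 11.4% of all genes at an unadjusted p under 0.05. The difference of the harmonic between the diets passed for 0 members in edgeR and DESeq2 and for 2 in limma voom (Acsl3 and Acsl4), with 20.2% of all genes called by edgeR, and 2 members and 33.6% of all genes at an unadjusted p under 0.05. In limma voom 6095 of 19977 genes were called for that difference. The Acsl3 group means do not follow a single smooth wave, since 12 AM follows directly on the lowest time.

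The levels of cell type markers differed between the diets at 4 PM. The summed adipocyte markers were 12240.3 to 17710.5 CPM in ad-lib and 29074 to 47723 CPM in TAN libraries, and the lymphocyte markers were 998 to 1702 CPM in ad-lib and 12.9 to 395 CPM in TAN libraries, neither with overlap. Of these lists, 1 of 6 adipocyte markers was called higher (6.54% of all genes) and 2 of 10 lymphocyte markers lower (8.77% of all genes). In bulk tissue fewer cells of a type and less RNA per cell cannot be told apart. The 5 macrophage markers summed to 1174 to 1882 CPM in ad-lib and 303 to 1348 CPM in TAN libraries at 4 PM. Of these, 1 of 5 was called lower at 4 PM (8.77% of all genes) and 1 of 5 lower in the mean effect (2.74%). Their part in the members' values was not tested. With the adipocyte marker level as a covariate, added after the data were seen, no member passed at 4 PM, and the difference of Fads3 was 0.07. The loss was general: beside 3057 genes called at 4 PM without a covariate, 196 were called with the adipocyte covariate and 0 with the lymphocyte covariate. At 12 AM TAN replicates 2, 3 and 4 lay above all ad-lib libraries in adipocyte markers and below all in lymphocyte markers, and replicate 1 did not. Over 12 alternatives that include both covariates, the 12 AM difference was 0.35 to 0.98 for Fads3, 0.53 to 1.02 for Acsl3 and 0.78 to 1.22 for Hsd17b12.

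The mean effects of Hsd17b12 and Fads2 over the 6 times passed under both covariates. Hsd17b12 stood at 0.57 (edgeR adjusted p = 2.64e-04) with the adipocyte markers and 0.64 (adjusted p = 0.00511) with the lymphocyte markers, and Fads2 at 0.50 (adjusted p = 0.0185) and 0.48 (adjusted p = 0.0336). Over the 48 libraries the correlation with the adipocyte markers was 0.94 for Fads3, 0.81 for Fads1, 0.76 for Hsd17b12 and 0.66 for Acsl3, and 0.31 or lower for Fads2, Elovl1, Elovl5 and Acsl4. Elovl7 had a negative value of -0.50. In Fads3, Fads1 and Hsd17b12 the TAN libraries of 8 PM split into a low and a high pair. Without that low pair 4 of 10 members were called at 4 PM (Fads1, Fads2, Fads3 and Hsd17b12) and 5 in the mean effect (these and Acsl3), while the calls over all 21708 genes then tested rose as well, to 4398 at 4 PM and 2667 in the mean effect.

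**Figure D4:**
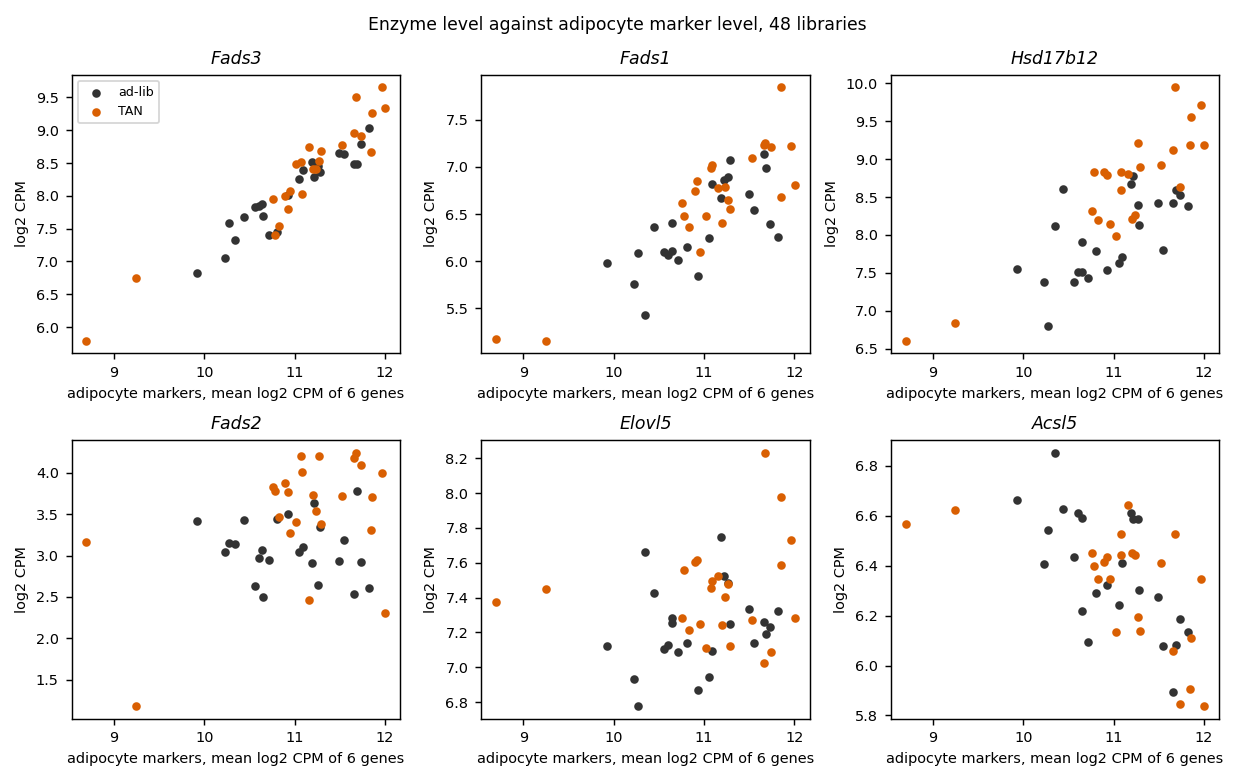
Log2 CPM of 6 members against the mean log2 CPM of the 6 adipocyte markers, 1 point per library, 48 libraries, with ad-lib and TAN in different colors. Fads3 lies close to a line over all libraries (r = 0.94), whereas Fads2 does not (r = 0.31).

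Among themselves, Fads1, Fads3 and Hsd17b12 varied together, with pairwise Pearson correlations of log2 CPM of 0.80 (Fads1 and Fads3), 0.79 (Fads1 and Hsd17b12) and 0.77 (Fads3 and Hsd17b12) over 48 libraries, and 0.77, 0.68 and 0.72 once group means were removed. Fads2 was less related to its neighbour Fads3 (0.27, and 0.04 within groups) despite lying beside it on the chromosome. Over all genes tested, those most like Fads1 were Aldh1l1 (r = 0.89), a folate enzyme, and Dlst (r = 0.88), a subunit of the oxoglutarate dehydrogenase complex. Those most like Hsd17b12 were Chpt1 (r = 0.97), which makes phosphatidylcholine, and Mpc1-ps (r = 0.97), a pseudogene whose reads may come from its parent gene.

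The genes that work beside the members were counted in the same way, beside 6.54% of all genes called higher at 4 PM. Of 7 other desaturases, 3 rose at 4 PM, among them Scd1 (12950.3 ± 3304 against 41936 ± 8586 CPM, log2 difference 1.70, edgeR adjusted p = 0.0315) and Scd2 (1.48, adjusted p = 0.0122), which make monounsaturated fatty acids. Of the 4 other elongases, 2 rose: Elovl6, which lengthens palmitate, went from 45.2 ± 26.4 to 717 ± 488 CPM (3.99, adjusted p = 0.00397), and Elovl3 from 0.00934 ± 0.0187 to 1.37 ± 1.09 CPM, where the ad-lib level lies under the limit of 3 counts. Of 6 electron donors of the desaturases, 3 rose at 4 PM, with Cyb5b at 1.51 (adjusted p = 0.00979) and Cyb5a at 1.36 (adjusted p = 0.0230). Cyb5r2 was called at 8 PM, where it was at 0.299 ± 0.334 CPM in ad-lib and at 0 in all TAN libraries.

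Tecr, the last enzyme of the elongation cycle, rose at 12 AM from 123 ± 8.36 to 321 ± 92.3 CPM (log2 difference 1.39, edgeR adjusted p = 0.00161). Of the 5 tested genes of that cycle outside the members, 1 was called higher at 4 PM and 1 at 12 AM, where 0.125% of all genes were called higher. Of the 9 tested acyl-CoA synthetases outside the members, 0 rose and 1 fell at 4 PM, Acsbg1 (-1.88, edgeR adjusted p = 0.0476). This share is near the 8.77% of all genes called lower at 4 PM. In the arachidonate list 3 of 14 genes rose at 4 PM, including the prostaglandin E synthase Ptges (1.66, adjusted p = 0.0255) and the lipid peroxide reductase Gpx4 (1.42, adjusted p = 0.0139). Of 10 regulators 1 rose, a share near that of all genes, Insig2 (0.95, adjusted p = 0.0301), which retains sterol-response factors in the endoplasmic reticulum. Srebf1 and the other regulators did not pass at 4 PM. These lists were measured in the same libraries as the adipocyte and lymphocyte markers given above, and the part of cell composition in their 4 PM and 12 AM values was not tested.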

How the data were processed

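Diet, time and replicate of the 48 libraries came from the labels, and 0 columns of sample values were unused. The authors deposited raw counts per gene and library, and FPKM as means of each diet and time, which were used only to check the order of levels. The submitters' processing notes name TopHat 1.3.3, DESeq2 1.20.0, limma and edgeR, and the builds mm9, mm10 and GRCm38. Gene coordinates of 98.1% of the genes (7 of 10 members) are those of GENCODE M21 on GRCm38. Counts were tested with edgeR 4.0.16 in R 4.3.3 (filterByExpr with a minimum count of 10, TMM, robust quasi-likelihood, 12 groups in 1 model, Benjamini-Hochberg over 19977 genes, called at adjusted p under 0.05), after the fit was tested on simulated data. Log2 CPM used a prior count of 2. Alternatives were DESeq2 1.42.0, voom of limma 3.58.1, other filters, RLE factors, a replicate block, marker covariates, separate fits and left-out libraries. All 10 members are named. From the other lists up to 2 called genes per direction are named, and 2 most correlated genes for each member called at any time. Members and lists were chosen with earlier results of these data known. Reads and other assays of the study were not analysed here.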

Additional observations from a re-analysis of the deposited data

Results flagged for a closer look

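Among 120 groups of 4 libraries, 6 held a value far from the other 3 libraries by Dixon's criterion, where chance gives about 1 in 20. In TAN mice at 8 AM, replicate 2 stood above the others in Elovl1 (62.6 CPM, others 49.2 to 50.6), Elovl5 (169 CPM, others 149 to 152) and Acsl3 (47 CPM, others 34.3 to 36.4). Elovl7 was high in ad-lib replicate 1 at 4 PM (3.74 CPM, others 2.42 to 2.51). Acsl5 was low in ad-lib replicate 3 at 4 AM (67.6 CPM, others 96.0 to 98.9) and slightly high in TAN replicate 4 at 4 AM (92.1 CPM, others 86.4 to 87.3).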

How the results depend on the processing

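No log2 difference that was followed changed direction. Those followed were all members in the mean effect and, at single times, members with an unadjusted p under 0.05. Of 156 counts of members called under alternatives, 125 stayed within 1.5 times, and of 565 values of single members 506 kept their side of the threshold (11 lost and 48 gained it). Members called at 4 PM (2) numbered 0 with lymphocyte or adipocyte markers as a covariate, where the calls over all genes went from 3057 to 0 and 196, and 4 without both TAN 8 PM libraries poorest in adipocyte markers. At 8 PM (0) there was 1 with voom, either covariate or that pair left out, and at 12 AM (0) 1 with voom and 2 with DESeq2. Over all genes, calls at 8 PM were 3711 with voom, 3848 and 4868 with the lymphocyte and adipocyte covariates and 2345 without the pair, beside 2333. At 12 AM they were 42 with voom and 562 with DESeq2, beside 30. Genes tested were 19977, with 21708 without the pair, 33438 with no filter and 11196 with 10 counts in every library. The mean effect (2) gave 1 with no filter, 4 with the adipocyte covariate, 5 without the pair and 0 when a log2 fold change above 1 was also asked. In the same order, the mean effect called 753, 1693, 2667 and 394 of all genes, beside 1082. The effect differing between times (0) gave 1 with 10 counts in every library, RLE, either covariate, DESeq2 or the pair left out, and 2 with voom. Calls over all genes in these settings ran from 1371 with the lymphocyte covariate to 4390 with voom, beside 1793. Variation in TAN (4) gave 7 with voom and DESeq2, where 6661 and 7364 of all genes were called, beside 4603. The harmonic gave 1 in ad-lib (0) with either covariate, 4 in TAN (1) with the adipocyte covariate or without the pair and 2 with DESeq2, and between diets (0) 2 with voom or without the pair and 1 with either covariate. Over all genes the ad-lib harmonic called 55 and 175 with the lymphocyte and adipocyte covariates, beside 16. The TAN harmonic called 7353 with the adipocyte covariate, 5658 without the pair and 4835 with DESeq2, beside 3965. Between diets, calls were 6095 with voom, 6244 without the pair, and 3431 and 6334 with the lymphocyte and adipocyte covariates, beside 4027. Both the adipocyte covariate and the omitted pair were chosen after seeing the data, and the cause of these moves was not tested.

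Leaving out 1 library gave 0 to 2 members at 4 PM (0 without ad-lib replicate 3, and 1, Fads1, without ad-lib replicate 4 or TAN replicate 1), 0 to 1 at 8 PM (Acsl3 at -1.67 without TAN replicate 4, adjusted p = 0.00128) and 0 to 2 at 12 AM (Elovl5 and Hsd17b12 without TAN replicate 1, Elovl7 without replicate 2). The range was 0 at 8 AM, 12 PM and 4 AM, 2 to 4 in the mean effect (4 without TAN 12 AM replicate 1), 0 to 2 for the effect differing between times (2 without TAN 8 PM replicate 4), 1 to 6 for variation in TAN (1, Acsl3, without TAN 12 AM replicate 4, and 6 without TAN 8 PM replicate 4 or TAN 12 AM replicate 1), 0 in ad-lib, 0 for the harmonic in ad-lib, 1 to 2 in TAN and 0 to 1 between diets. Replicate numbers did not pair the libraries (5 of 24 pairs correlated above 0.1, median 0.0348). With a replicate block, 2 members were called at 4 PM, 3 in the mean effect (Elovl5 added, adjusted p = 0.0477) and 6 in the variation in TAN, and no other call changed. Over all 19977 genes the block gave 2825, 945 and 4124 calls in these comparisons.

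Markers of several cell types differed widely between the 4 libraries of a group, and Elovl7 rests on few counts.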
